A study of Mus musculus with 8 samples.

Results

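The genes described here are 10 members of 2 mouse families of anion transporters, SLC26 (Slc26a7, Slc26a2, Slc26a6, Slc26a10 and Slc26a11) and SLC4 (Slc4a3, Slc4a4, Slc4a7, Slc4a8 and Slc4a10). They were found by symbol among the 55341 symbols of each count file, and all 10 were present. The list was built around Slc26a7, which was chosen by its fall between the 2 groups of mice compared below, and the other 9 were listed with results of these data known. For Slc26a7 the values of that comparison are therefore a description, with no test. For the other 9 the test over all genes is given, and a count of how many passed it supports nothing about the list.

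RNA came from sorted nuclei of GABAergic neurons, the inhibitory neurons of the cortex, of juvenile mice, with 1 library per mouse. In both groups a Cre-dependent transgene put a nuclear fluorescent protein into GABAergic neurons, and the mothers had received propylthiouracil (PTU), which blocks thyroid hormone synthesis, during gestation. The labels call the mice of both groups hypothyroid, and no hormone levels were used here. The PTU group (mice 9 to 12, n = 4) has no further treatment in the labels, and mice 13 to 16 (PTU+TH group, n = 4) were injected with thyroid hormone (TH) 24 h before the cortex was taken. The labels used here name no Cre driver, strain, sex, exact age or litter, and there was no euthyroid group among these libraries. Libraries held 21762810 to 29084071 counts and 22834 to 23361 detected genes. Expression is in CPM (each count relative to its library's total after TMM scaling), and a value written with ± is the mean and SD of a group (n = 4 mice). A positive log2 fold change means a higher level with TH. Fold changes, standard errors (SE) and p-values came from edgeR's quasi-likelihood test, with Benjamini-Hochberg adjustment across 17355 genes, and genes with an adjusted p below 0.05 are termed called. The p-values measure the spread between these mice.

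SLC4 proteins carry bicarbonate across the plasma membrane, either in exchange for chloride or together with sodium, and so help set the pH of the cell. SLC26 proteins exchange or conduct a wider range of anions, among them chloride, bicarbonate, sulphate, oxalate and iodide. Both matter for inhibitory signalling, since the GABA-A receptor channel passes chloride and bicarbonate. Slc26a7 encodes a chloride and bicarbonate transporter best known from stomach, kidney and the thyroid gland, and its loss in the thyroid causes hypothyroidism with goitre.

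The sort and the treatment were checked on marker genes. Gad1 and Gad2, the enzymes that make GABA, stood at 389 to 546 CPM and 392 to 481 CPM in the 8 libraries, and the excitatory neuron gene Slc17a7 at 15.8 to 57.9 CPM. Other GABAergic markers varied widely, with Dlx6os1 at 188 to 275 CPM and Dlx5 at 9.11 to 15.5 CPM. Slc32a1, the vesicular GABA transporter, stood at 9.01 to 21.1 CPM, below Slc17a7 in each library. Dlx1 was listed at 0 but lies inside Dlx1as, so its 0 cannot be read. Hr, a direct target of the TH receptor, rose from 1.80 ± 0.53 to 26.6 ± 1.62 CPM, while Klf9 rose by 1.37 and Dbp by 1.09 on the log2 scale (adjusted p from edgeR 6.59e-07 for Hr, 0.00223 for Klf9 and 0.00639 for Dbp). Counts of 4 Y-linked genes were 0 in PTU+TH mice 15 and 16 and 7960 to 11548 in sum in each of the other 6 libraries, so the groups were not balanced for sex. By mouse number the libraries also fall into a set of mice 9, 10, 13 and 14 and a set of mice 11, 12, 15 and 16, and values within each set are given where a result rests on them.

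Slc26a7 (GRCm38, chromosome 4, 14502430 to 14621805, minus strand, 119.4 kb with no overlapping gene) was lower in every mouse given TH than in any mouse of the PTU group. It stood at 11.1, 12.7, 6.53 and 10.6 CPM in mice 9 to 12 of the PTU group, against 4.64, 4.74, 2.27 and 3.62 CPM in TH-treated mice 13 to 16. The raw counts were 305, 337, 132 and 242 for mice 9 to 12, and 110, 138, 50 and 76 for mice 13 to 16. The lowest PTU library, mouse 11, was still above the highest PTU+TH library, mouse 14. The mean of 10.2 ± 2.62 CPM without TH compares with 3.82 ± 1.15 CPM after TH, a level 2.68 times as high in PTU, and the fitted log2 fold change was -1.42 (SE 0.26). Over all genes tested, 0.634% were called lower and 1.49% higher.

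Since the groups did not overlap, Slc26a7 was bound to be lower with TH in both sets of mice. The values by set therefore describe only the size of the fall. In mice 9, 10, 13 and 14 Slc26a7 averaged 11.9 CPM without TH and 4.69 CPM with it, and in mice 11, 12, 15 and 16 it averaged 8.56 and 2.94 CPM. The PTU level was thus 2.54 times as high in the first set and 2.91 times as high in the second. The lowest values of the treated group, 2.27 and 3.62 CPM, were those of mice 15 and 16, the 2 libraries without Y-linked counts. In the 6 libraries with Y-linked counts the log2 fold change was -1.12 (SE 0.28).

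**Figure D1:**
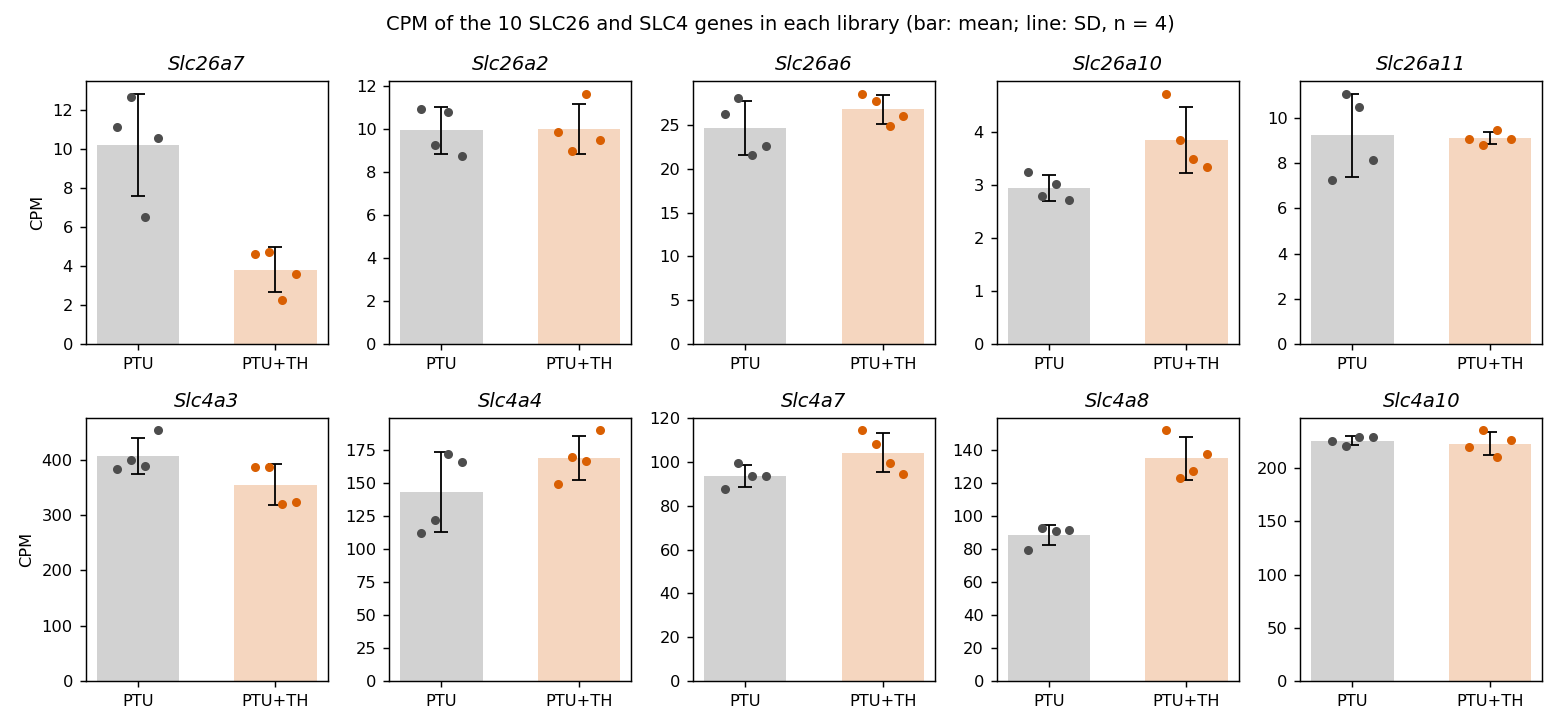
CPM (vertical axis, from 0) of each of the 10 genes in the 4 PTU libraries (grey) and the 4 PTU+TH libraries (orange), with bars for the mean and lines for the SD. The libraries of the 2 groups are apart for Slc26a7 (PTU+TH lower) and for Slc4a8 and Slc26a10 (PTU+TH higher), and overlap for the other 7 genes.

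In bulk nuclei a smaller share of a cell class and less RNA per nucleus cannot be told apart, so markers of GABAergic neuron classes are set beside Slc26a7. The summed level of 5 VIP class markers (Vip, Htr3a, Prox1, Calb2 and Cck) was 224 to 336.5 CPM without TH and 209 to 219 CPM with it, and that of 5 SST class markers (Sst, Calb1, Crhbp, Chodl and Elfn1) was 532.5 to 663.5 and 424 to 513 CPM. Neither sum overlapped between the groups. All 5 VIP class markers had a negative log2 fold change, from -0.28 to -1.11, and 1 was called, Htr3a, a serotonin receptor subunit (edgeR adjusted p = 0.0344). Of the SST class markers 4 were negative and 1 was called, Calb1, a calcium buffer with a log2 fold change of -0.73 and an edgeR adjusted p of 0.00328, while Vip and Sst themselves stood at -0.29 and -0.09 on the log2 scale and were not called. The sums of 5 PV class markers, with Cox6a2 listed at 0 but inside Itgad and not readable, ranged from 216 to 308 CPM in PTU and from 276.5 to 366 CPM in PTU+TH, and of the 4 tested 3 were positive and 1 was called higher, Syt2, a synaptotagmin of fast transmitter release, at 1.15 on the log2 scale (edgeR adjusted p = 0.00603). Those of 6 LAMP5 class markers ranged from 1219 to 1363 and from 1118 to 1276 CPM. Of these 4 had a negative and 2 a positive log2 fold change, with a median of -0.09, and 1 was called higher, Gabrd, a GABA-A receptor subunit, at 1.40 on the log2 scale (edgeR adjusted p = 1.67e-05). These counts of 1 gene per list stand beside 0.634% of all genes called lower and 1.49% called higher. The part of these shifts in the fall of Slc26a7 was not tested.

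**Figure D2:**
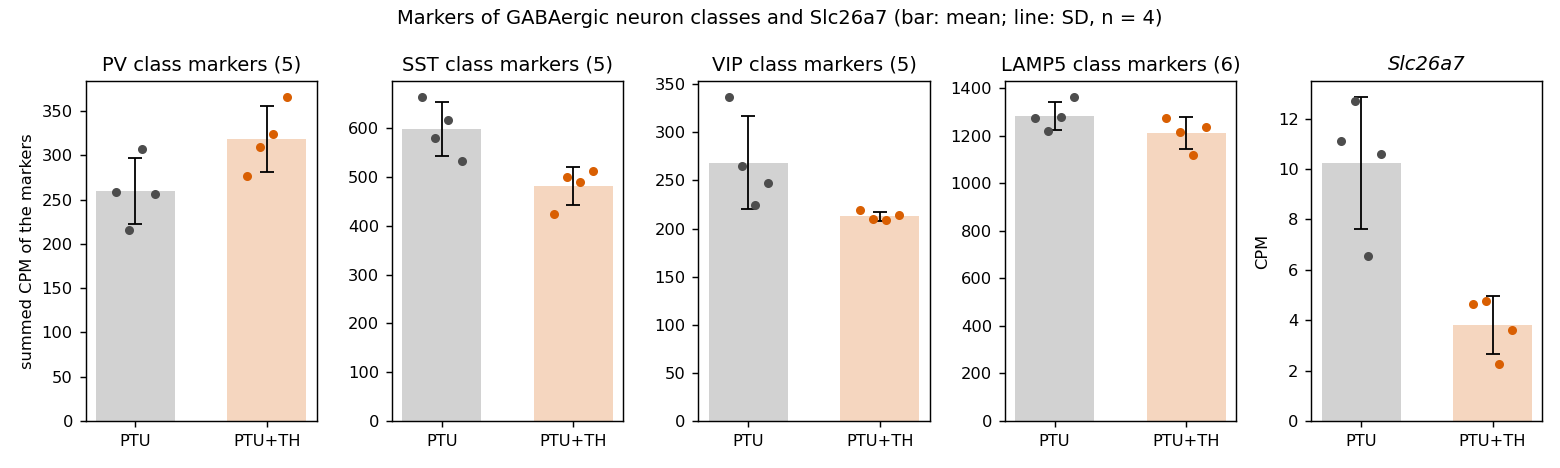
Summed CPM of the marker lists of 4 GABAergic neuron classes and, at the right, CPM of Slc26a7, in each library of PTU (grey) and PTU+TH (orange), with mean and SD. The VIP and SST sums are lower in all 4 PTU+TH libraries, by less than Slc26a7, whose PTU mean is 2.68 times that of PTU+TH.

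Markers of other cell types that a sort of cortical nuclei can hold are given beside Slc26a7. The 8 markers of fibroblasts of the meninges and vessels summed to 4.68 to 11.2 CPM without TH and 4.57 to 10.3 CPM with it. Col3a1, the most abundant of them, stood at 1.75 to 3.99 CPM, and Ogn was listed at 0 but lies inside Cenpp, so its 0 cannot be read. Choroid plexus markers without Slc4a5 summed to 2.33 to 3.07 and 1.86 to 2.53 CPM. Mouse 10 had the highest Slc26a7 level and the highest sums of fibroblast markers (11.2 CPM), endothelial markers (199 CPM) and mural cell markers (96.7 CPM) of the 8 libraries. Mouse 15 of the PTU+TH group was second on all 3 sums, at 10.3, 142 and 68.9 CPM, and had the lowest Slc26a7 level. Endothelial sums ranged from 41.6 to 199 CPM in the PTU group and from 43.1 to 142 CPM after TH, and mural cell sums from 17.3 to 96.7 and from 19.8 to 68.9 CPM. Without mouse 10 the log2 fold change of Slc26a7 was -1.29, and the part of these cell types in it was not tested.

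The genes that followed Slc26a7 most closely from mouse to mouse were sought over deviations of log2 CPM from the group mean, among 15229 genes averaging 1 CPM or more. The 3 highest correlations over the 8 libraries were with 2210008F06Rik (Pearson r 0.996, Spearman rho 0.976), Zfp185 (0.993 and 0.929) and Zbtb48 (0.988 and 0.952). With 8 libraries and so many genes compared, these are the top of a long list and are given as a description. None of the 3 was called between the groups, with log2 fold changes of -0.08, -0.07 and -0.14. Among the other transporters described here, Slc26a6 had the highest value (r 0.80, rho 0.71) and Slc26a2 the lowest (r -0.72, rho -0.57).

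Of the 9 other genes, 1 was called, against 2.12% of all genes tested. Their median log2 fold change was 0.12, against -0.01 over all genes, with 6 positive and 3 negative. All 10 genes passed the filter on low counts. Groups did not overlap for 2 of the 9 genes other than Slc26a7, Slc4a8 and Slc26a10, beside 8.71% of all genes tested.

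**Figure D3:**
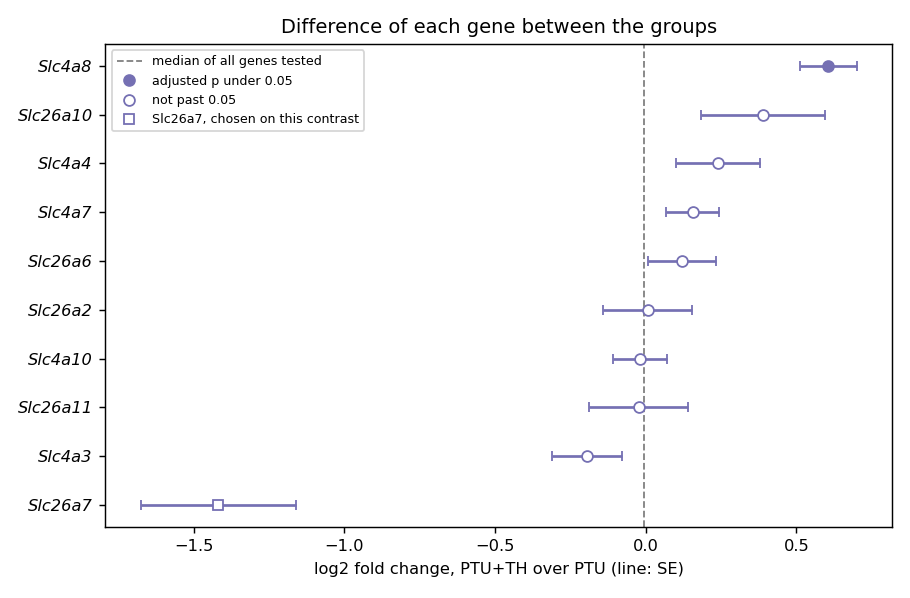
Log2 fold change of PTU+TH over PTU (horizontal axis) with its SE for each of the 10 genes; filled points passed an adjusted p of 0.05, the open square is Slc26a7, and the dashed line is the median of all genes tested. Slc26a7 lies at -1.42 and Slc4a8 at 0.61, and the other 8 genes lie between -0.19 and 0.39.

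Slc4a8 rose. It encodes NDCBE, a neuronal exchanger that takes up sodium and bicarbonate and extrudes chloride. It lies at chromosome 15, 100761747 to 100823968 on the plus strand, with no overlapping gene. Its levels were 79.6, 92.9, 90.7 and 91.7 CPM in PTU mice 9 to 12 and 152, 123, 127 and 138 CPM in TH-treated mice 13 to 16. Every treated mouse was above every untreated mouse. The mean went from 88.7 ± 6.15 to 135 ± 13.0 CPM, 1.52 times as high at a log2 fold change of 0.61 with SE 0.09 (edgeR, adjusted p = 0.00396). Within mice 9, 10, 13 and 14 the level was 1.59 times as high with TH and within mice 11, 12, 15 and 16 it was 1.45 times as high. In the 6 libraries with Y-linked counts the log2 fold change was 0.63 but the call was lost (edgeR adjusted p = 0.0676), with 58 genes called in all in that smaller fit against 368.

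The promoter of Slc4a8 is shown because it is the transporter that passed the test, beside that of Slc4a7, its relative that did not. TH receptors bind the hexamer AGGTCA, often as a direct repeat. The windows are the 250 bases before the RefSeq start site (GRCm38.p6, plus strand for both), at chr15:100761497-100761746 for Slc4a8 and chr14:14718534-14718783 for Slc4a7, whose window lies in an intron of longer GENCODE transcripts of the same gene. Capitals mark AGGTCA or its reverse complement TGACCT.

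Slc4a8: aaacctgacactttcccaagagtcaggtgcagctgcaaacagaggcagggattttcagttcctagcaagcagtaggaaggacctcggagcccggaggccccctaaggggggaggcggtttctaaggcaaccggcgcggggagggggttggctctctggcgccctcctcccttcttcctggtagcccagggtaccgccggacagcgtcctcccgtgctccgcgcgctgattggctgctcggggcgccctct

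Slc4a7: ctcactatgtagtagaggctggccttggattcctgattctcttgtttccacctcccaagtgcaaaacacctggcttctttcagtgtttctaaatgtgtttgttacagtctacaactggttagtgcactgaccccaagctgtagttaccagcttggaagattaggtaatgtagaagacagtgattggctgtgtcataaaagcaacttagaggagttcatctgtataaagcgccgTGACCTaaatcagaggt

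The Slc4a8 window held no match on either strand, and the Slc4a7 window held 1 on the opposite strand, starting at position -17 from the start site. RefSeq windows were found for 7 of the 10 genes, 9 windows in all since Slc4a4 and Slc4a10 have more than 1 start site. Of the 9 windows, 2 held the hexamer, the other being a window of Slc4a4 with a match at position -121, against 14.0% of the 32851 windows of all genes. A direct repeat of the hexamer with 4 bases between the copies was in none of the 9 and in 5 of the 32851. Windows of Slc26a7, Slc26a2 and Slc26a11 were not analysed here. A match is only a match of letters, and its absence from a window says nothing about the receptor.

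The other chloride and bicarbonate exchanger of the SLC4 list is Slc4a3, which encodes AE3, the exchanger that brings chloride into neurons and bicarbonate out. Slc4a3 (chromosome 1, 75546266 to 75562172) stood at 383, 400.2, 388 and 453 CPM in mice 9 to 12 of the PTU group, against 387, 388, 320.4 and 324 CPM in TH-treated mice 13 to 16. The groups overlapped through mice 13 and 14, and only mice 15 and 16 were below all PTU libraries. Its log2 fold change of -0.19 (SE 0.12) had an edgeR adjusted p of 0.566. Within mice 9, 10, 13 and 14 the PTU mean was 1.01 times the PTU+TH mean, and within mice 11, 12, 15 and 16 it was 1.30 times that mean.

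The remaining SLC4 genes encode cotransporters that bring sodium and bicarbonate into the cell. Slc4a10 (NCBE, chromosome 2, 62046462 to 62326730) had the smallest SD relative to its mean of all 10 genes in PTU (1.75%), at 226 ± 3.95 CPM, against 223 ± 10.8 CPM after TH, at a log2 fold change of -0.02 with SE 0.09 and an edgeR adjusted p of 0.972. Slc4a7 (NBCn1, chromosome 14, 14702279 to 14799940) stood at 93.7 ± 4.96 and 104 ± 8.85 CPM, with the groups overlapping and a log2 fold change of 0.16 at an edgeR adjusted p of 0.522.

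Slc4a4 (NBCe1, chromosome 5, 88886818 to 89239653) is best known from astrocytes, in which it is abundant. It stood at 112, 122, 171 and 166 CPM in mice 9 to 12 of the PTU group, against 149, 169, 166 and 190 CPM in TH-treated mice 13 to 16 without reaching the call, since its log2 fold change of 0.24 (SE 0.14) had an edgeR adjusted p of 0.540. The low values were those of mice 9 and 10. The level with TH was 1.36 times that without within mice 9, 10, 13 and 14, and 1.06 times within mice 11, 12, 15 and 16. The other 6 astrocyte markers summed to 226, 241, 179 and 125 CPM in mice 9 to 12 and to 258.5, 127, 366 and 195 CPM in mice 13 to 16, and their part in the Slc4a4 values was not tested. Among them Gfap was listed at 0 but lies inside Gm26668, so its 0 cannot be read, and Aqp4, the astrocyte water channel, stood at 3.61 to 14.2 CPM over the 8 libraries.

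None of the other SLC26 genes was called. Slc26a2, the sulphate transporter needed for sulphated proteoglycans, averaged 9.92 ± 1.08 CPM without and 9.97 ± 1.16 CPM with TH, and its log2 fold change of 0.01 (SE 0.15) had an edgeR adjusted p of 0.994. Slc26a11, a further sulphate transporter (chromosome 11, 119355557 to 119381079), stood at 9.24 ± 1.83 and 9.09 ± 0.27 CPM at a log2 fold change of -0.02 and an edgeR adjusted p of 0.984. Its libraries ranged from 7.25 to 11.1 CPM without TH, and those with TH, from 8.80 to 9.45 CPM, lay inside the range of the PTU group. Slc26a6, an exchanger of chloride for oxalate or bicarbonate (chromosome 9, 108853283 to 108913049), stood at 24.6 ± 3.03 and 26.8 ± 1.65 CPM at a log2 fold change of 0.12 and an edgeR adjusted p of 0.763.

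Slc26a10 (chromosome 10, 127171393 to 127180645) encodes a member of the family whose transport is little known. It stood at 3.24, 2.78, 3.02 and 2.71 CPM in mice 9 to 12 of the PTU group, against 4.72, 3.85, 3.50 and 3.33 CPM in TH-treated mice 13 to 16. The groups did not overlap, but the lowest treated mouse and the highest untreated mouse were close, and the gene missed the call, with a log2 fold change of 0.39 (SE 0.21) at an edgeR adjusted p of 0.486. It rests on 61 to 112 counts per library, and 89.9% of its body is free of B4galnt1, which overlaps it on the opposite strand.

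Levels of different genes were compared per length. Per kb of merged exons Slc4a3 led in both groups, with 47.2 ± 3.74 CPM per kb in PTU, followed by Slc4a10 with 35.2 ± 0.62, Slc4a4 with 13.2 ± 2.79, Slc4a8 with 6.81 ± 0.47, Slc4a7 with 6.16 ± 0.33 and Slc26a6 with 4.55 ± 0.56. Next came Slc26a11 with 2.56 ± 0.51, Slc26a7 with 1.88 ± 0.48, Slc26a2 with 0.80 ± 0.09 and Slc26a10 with 0.73 ± 0.06 CPM per kb of exon. In PTU the libraries of Slc4a8 and Slc4a7, of Slc26a11 and Slc26a7, and of Slc26a2 and Slc26a10 overlapped, so these neighbours cannot be ordered. In PTU+TH Slc26a7 had the lowest mean, with 0.70 ± 0.21 CPM per kb of exon. Its libraries overlapped those of Slc26a2 and Slc26a10, so it cannot be ordered among them. Slc4a8 stood apart from Slc4a7 in PTU+TH, with 10.4 ± 1.00 against 6.86 ± 0.58.

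Nuclear RNA holds introns, so the order was also taken per kb of the whole gene body, a scale chosen after the files were seen. Slc4a3 again led, with 25.5 ± 2.02 CPM per kb of body in PTU, and Slc26a7 was last in both groups, with 0.086 ± 0.022 in PTU and 0.032 ± 0.010 in PTU+TH. Slc4a4, whose body spans 352.8 kb, moved by its mean from the third place per kb of exon to the seventh in PTU, with 0.40 ± 0.09 CPM per kb of body. Its PTU libraries overlapped those of Slc26a2, Slc26a6, Slc26a11 and Slc26a10 on this scale, so it cannot be ordered among them. On both scales, and in both groups, Slc4a3 was the highest and all 5 SLC26 genes were below Slc4a10, Slc4a7 and Slc4a8.

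**Figure D4:**
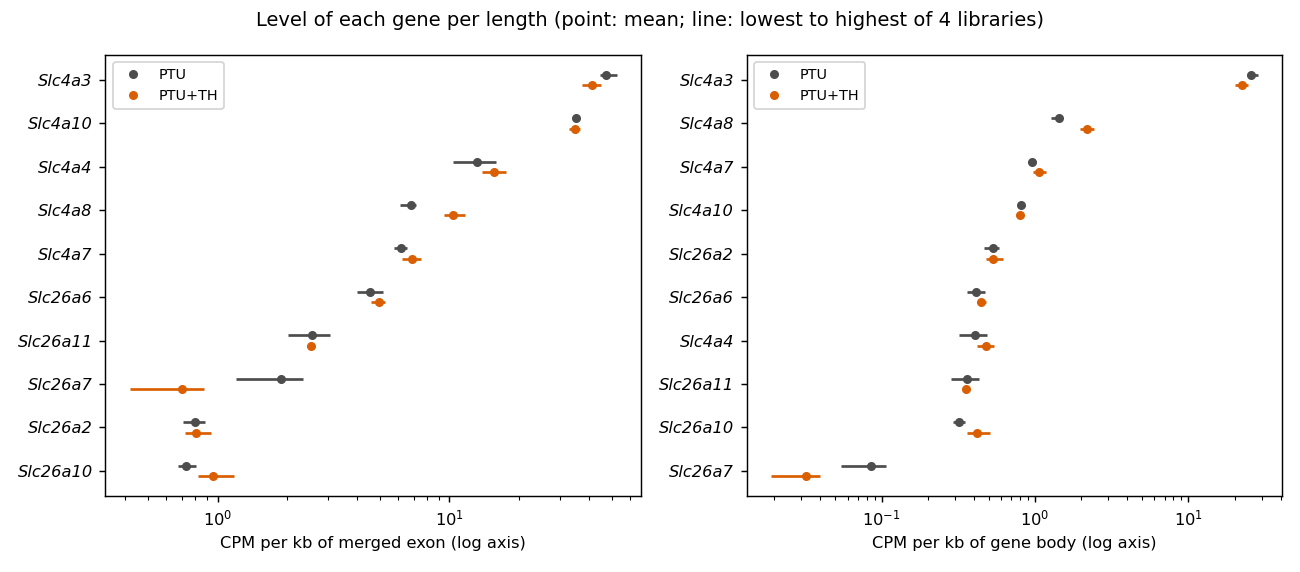
Level of each gene per kb of merged exons (left) and per kb of gene body (right), both on log axes, with the mean and the range from the lowest to the highest of 4 libraries in PTU (grey) and PTU+TH (orange). Slc4a3 is highest on both scales, and Slc26a7 is the lowest gene per kb of body in both groups.

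The families hold further genes that were not on the list. Of 6 other Slc26 genes 3 passed the filter and 0 were called. The most abundant were Slc26a8, with 24.5 ± 5.48 CPM without TH and 21.8 ± 0.92 CPM with it, and Slc26a4, the iodide and bicarbonate exchanger pendrin, with 2.21 ± 1.02 and 1.45 ± 0.77 CPM. Slc26a1 was listed at 0 in all 8 libraries, but its body lies wholly inside Idua and 100% of 1257 such coding genes were at 0 in these files, so its expression cannot be read. Of 5 other Slc4 genes 3 passed the filter and 0 were called, the most abundant being Slc4a2, with 7.68 ± 1.14 and 7.71 ± 1.01 CPM, and Slc4a9, with 2.62 ± 0.83 and 3.53 ± 1.01 CPM.

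Carbonic anhydrases convert carbon dioxide and water to bicarbonate and protons and so supply the substrate of these transporters. Of 16 genes 11 passed the filter, and 8 had a positive and 3 a negative log2 fold change, with a median of 0.26 against -0.01 over all genes. The call was reached by 1 of the 11, against 2.12% of all genes. That gene was Car7, a cytosolic enzyme of neurons known to sustain bicarbonate current through GABA-A receptors.

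Car7 (chromosome 8, 104534689 to 104550343) stood at 19.6, 22.8, 13.1 and 15.9 CPM in mice 9 to 12 of the PTU group, against 34.0, 30.9, 29.9 and 24.4 CPM in TH-treated mice 13 to 16. All 4 treated mice were above all 4 untreated mice, and the mean rose from 17.8 ± 4.24 to 29.8 ± 4.02 CPM, a log2 fold change of 0.74 with SE 0.16 (edgeR, adjusted p = 0.0361). The call was lost on leaving out PTU mouse 11 or 12 or PTU+TH mouse 13, 14 or 15 (edgeR adjusted p from 0.0651 to 0.116). It was also lost in the 6 libraries with Y-linked counts (edgeR adjusted p = 0.149) and with library totals as the only scaling (0.157), while the log2 fold change stayed between 0.62 and 0.88. The level with TH was 1.53 times that without in mice 9, 10, 13 and 14 and 1.87 times in mice 11, 12, 15 and 16.

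Car4, a membrane-bound enzyme that faces the extracellular space, was named after its values were seen. It stood at 20.0, 31.5, 12.3 and 15.4 CPM without TH, against 48.2, 37.5, 36.2 and 35.5 CPM with TH, again without overlap. Its log2 fold change of 0.99 (SE 0.25) missed the call at an edgeR adjusted p of 0.0777. It was called in 4 of 17 alternatives: DESeq2 (adjusted p = 0.00175), limma voom (0.0361), edgeR with the mouse number set as a covariate (0.00847) and edgeR without PTU mouse 10 (0.00276). With TH its level was 1.67 times as high in mice 9, 10, 13 and 14 and 2.59 times in mice 11, 12, 15 and 16. The 2 most abundant genes of the family, Car10 and Car11, are relatives without enzyme activity, and stood at 231 ± 61.5 and 121 ± 6.17 CPM without TH and 213 ± 46.9 and 145 ± 15.7 CPM with it, both without a call (edgeR adjusted p = 0.900 and 0.242).

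The lists of sodium-proton exchangers, CLC chloride transporters, sulphate activation and thyroid iodide handling held 0 called genes by edgeR. They held 2 of 11, 0 of 8, 1 of 8 and 0 of 5 tested genes with an unadjusted p under 0.05, beside 2214 of 17355 over all genes. All 11 sodium-proton exchanger genes, which extrude acid, were tested, with a median log2 fold change of -0.08, and Slc9a9 and Slc9a8 were the most abundant, at 169 ± 57.5 and 99.3 ± 12.7 CPM without TH and 125 ± 24.9 and 95.3 ± 9.37 CPM with it. The 8 tested genes of the CLC list were Clcn1 to Clcn7 and Ostm1, which is not itself a CLC gene. They had a median of -0.01 and lay between -0.18 and 0.08. Clcn3 and Clcn2 were the most abundant over both groups together. They stood at 151 ± 23.4 and 140 ± 19.2 CPM without TH and 160 ± 8.77 and 141.5 ± 20.8 CPM with it. The 8 sulphate activation genes had a median of 0.05, with Impad1, a phosphatase of sulphate metabolism, at 55.4 ± 21.2 and 59.2 ± 9.51 CPM and Slc35b3, a carrier of activated sulphate, at 55.9 ± 7.57 and 45.2 ± 7.14 CPM.

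Since Slc26a7 serves iodide handling in the thyroid gland, 10 genes of that pathway were also listed. Of these 5 passed the filter, Slc26a4 among them, and Slc5a5, the iodide importer, was the most abundant. Slc5a5 stood at 9.12 ± 1.65 CPM without TH and 8.35 ± 1.00 CPM with it, with edgeR giving an adjusted p of 0.859. The list as a whole summed to 14.8 to 21.0 CPM without TH and 14.0 to 17.5 CPM with it.

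**Figure D5:**
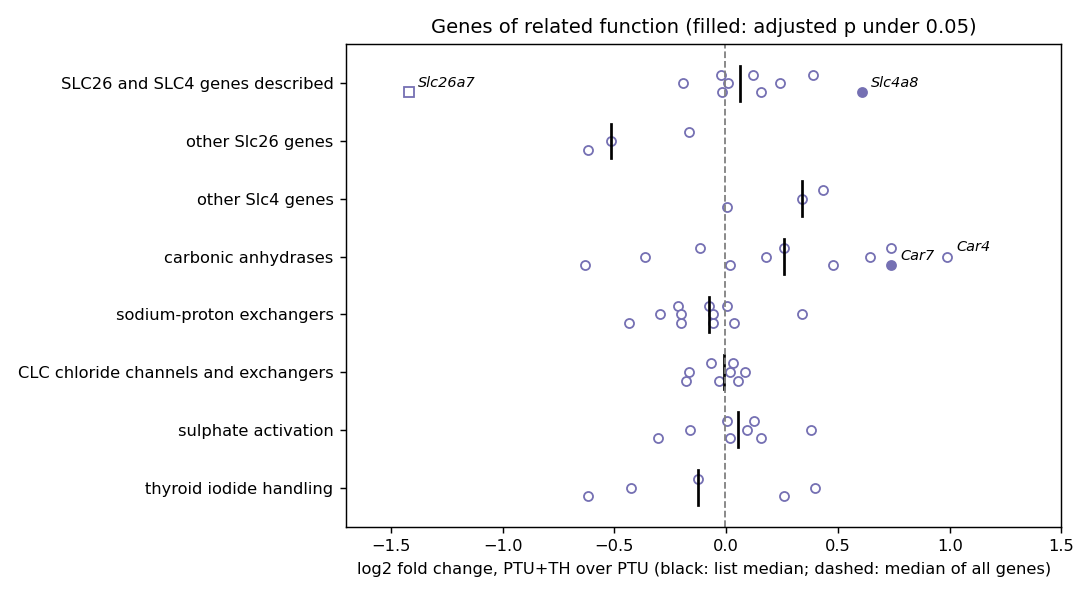
Log2 fold change of PTU+TH over PTU (horizontal axis) for every tested gene of the 10 transporters and of 7 lists of related function, with the list median as a black line and the median of all genes as a dashed line; filled points passed an adjusted p of 0.05 and the open square is Slc26a7. Slc4a8 and Car7 are the only filled points, and Car4 at 0.99 is the highest gene shown.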

How the data were processed

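Nuclear RNA of sorted GABAergic nuclei was sequenced from 8 mice, with cDNA from a SMART-Seq kit, Nextera XT libraries and single-end reads, per the labels' protocols. As deposited by the authors, each file lists 1 unnormalized read count for every symbol. Bowtie2 2.5.3 and builds mm10 and GRCm38 are named in the submitters' processing notes, while the counting program, annotation and use of strand are not given in the sources used here. Coding genes whose body lies inside another gene were listed at 0 (1257 of 1257, against 21.5% of 11731 coding genes that overlap no gene), so overlapping genes are uncertain.

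Positions, lengths and overlaps came from GENCODE M21 (GRCm38). Groups were taken from the titles. Counts were filtered with filterByExpr, scaled by TMM and tested with edgeR 4.0.16 (robust quasi-likelihood, R 4.3.3), two-sided, with the group as the only term and all 8 libraries. DESeq2 1.42.0 and limma voom (limma 3.58.1) were alternatives, with other scalings and filters, the mouse number set as a covariate, the libraries with Y-linked counts, and each library left out. On simulated data for PTU+TH against PTU (17355 genes), 63% of 200 genes with a log2 change of 1 and 90% of those with 2 were recovered. These gave 12 and 6 false calls, and data without a change gave 0 calls. The simulated libraries held no differences by mouse number set or sex, so these rates may not hold for the real libraries. Pairs of libraries within a group differed by 8.38 to 72.6 in chi-square per degree of freedom, so none was a copy of another. Pairs from the same mouse number set stood at 18.6 and 8.89 in PTU and at 8.38 and 10.55 in PTU+TH. Pairs across the sets were higher, at 29.7 to 72.6 in PTU and 16.4 to 24.8 in PTU+TH. The fit with the group as the only term does not model these sets.

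The 10 genes and the related lists were chosen with earlier results of these data known. Genes named were the 10 transporters, the called and the 2 most abundant genes of each related list, class markers, Hr, Klf9 and Dbp, and the 3 genes most like Slc26a7, and 1 gene that this rule names is not reported here. Levels per kb of gene body, marker sums without Slc4a4, Car2 and Slc4a5, and values within mouse number sets were added after seeing the data. No protein sequences were used here.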

Additional observations from a re-analysis of the deposited data

Results flagged for a closer look

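A search of 30 sets of 4 values for 1 library standing apart from the rest found 2 cases, and chance alone would give 1.5 (5% of sets). For Slc4a8 the PTU library of mouse 9 had 79.6 CPM while mice 10 to 12 lay between 90.7 and 92.9 CPM, a gap of 0.833 of the range. Leaving it out gave a log2 fold change of 0.56 (edgeR adjusted p = 0.00473). For Car4 the TH-treated mouse 13 had 48.2 CPM while mice 14 to 16 lay between 35.5 and 37.5 CPM, a gap of 0.847 of the range. Leaving it out gave a log2 fold change of 0.88 (edgeR adjusted p = 0.184).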

How the results depend on the processing

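No paired analysis was possible because no number is shared by mice of both groups. Slc26a7 was lower in PTU+TH under all 17 alternatives, with a log2 fold change from -1.58 to -1.12. When each library was left out it ranged from -1.58 to -1.24. The gene was chosen for this fall and its groups did not overlap, so the kept direction supports nothing and only the size is described. Slc4a8 was higher under all 17 (0.55 to 0.65) and called under 16 of them, the exception being the 6 libraries with Y-linked counts (0.63, edgeR adjusted p = 0.0676), where 0 of the 9 genes other than Slc26a7 were called. Slc26a6, Slc26a10, Slc4a3, Slc4a4 and Slc4a7 kept their direction and stayed uncalled under all 17.

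Changes of direction were seen for genes near 0. Slc26a2 was at -0.0145 with library totals, -0.0772 in the 6 libraries and from -0.0739 to 0.061 with each library left out. Slc26a11 was at 0.0033 with limma voom and from -0.1189 to 0.0838 with each library left out, and Slc4a10 was at 0.0114 in the 6 libraries and from -0.0453 to 0.0092 with each library left out.

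Against 368 called genes, DESeq2 gave 722, the mouse number set as a covariate 642, the 6 libraries 58 (52 higher and 6 lower), and leaving out a library between 182 (PTU+TH mouse 15) and 499 (PTU mouse 9). The count also fell by more than 1.5 times without PTU mouse 12 (233) and without PTU+TH mice 13 (238), 14 (227) and 16 (209). The 6 libraries hold fewer mice; for DESeq2 and the covariate the cause was not tested. Higher genes made up 70.1% of the calls, against 60.7% with DESeq2, 66.7% with the covariate, 89.7% in the 6 libraries and from 67.9% to 80.6% with each library left out. At 1 CPM a library gave 20.2 to 29.1 counts, which limits what can be said of the scarce genes.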

Other observations

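Car10 and Slc9a9 split the libraries by mouse number. Car10 stood at 164 and 200.1 CPM in PTU mice 9 and 10 and at 175 and 171 CPM in PTU+TH mice 13 and 14, against 303 and 257 CPM in PTU mice 11 and 12 and 244 and 262 CPM in PTU+TH mice 15 and 16. All 4 libraries of the second set were above all 4 of the first. Slc9a9, an endosomal sodium-proton exchanger, stood at 123 and 118 CPM in mice 9 and 10, 107 and 106 CPM in mice 13 and 14, 232 and 203 CPM in mice 11 and 12, and 129 and 159 CPM in mice 15 and 16, again without overlap between the sets. These genes were picked after their values were seen, the labels give no batch for these sets, and no test was made.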
